A study of Mus musculus with 6 samples.

Results

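This account compares 2 Drop-seq libraries of brain myeloid cells from mice, the library labelled metastasis replicate 1 against the library labelled wild type (naive) replicate 1. Drop-seq captures single cells in droplets and counts unique molecular identifiers (UMIs), so that each UMI stands for 1 captured transcript 3′ end. A barcode was kept where it had at least 400 detected genes, under 10% mitochondrial UMIs and at least 3 UMIs over 8 genes characteristic of microglia (P2ry12, Tmem119, Siglech, Sall1, Gpr34, Fcrls, Olfml3 and Slc2a5). The rule kept 643 barcodes, 406 from naive 1 and 237 from metastasis 1, of 6000 deposited in the 6 libraries of the series and of 1254 that it kept in all of them. Naive 1 was 1 brain of a naive female C57BL/6 mouse aged 2 to 3 months. Metastasis 1 was 1 brain of a female C57BL/6 mouse of the same age, killed 2 to 3 weeks after E0771 cells had been injected into the heart; E0771 is a mammary carcinoma line of the mouse. Naive 1 is labelled wild type, and the labels name no engineered allele for either mouse. Both brains were perfused with saline, digested with papain and passed over Percoll, and Cd11b-bearing cells were enriched on magnetic columns, a step that takes up other myeloid cells and NK cells besides microglia. The name of each deposited table gives the opposite group from its sample label. The labels were followed here, and with the table names every direction below would be turned round.

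Microglia are the resident macrophages of the brain. In the healthy brain they carry a homeostatic programme of receptors for nucleotides, chemokines and growth factors, held in place by transcription factors such as Sall1 and by TGF-beta signalling, together with abundant secreted and lysosomal products. Inflammation, injury and tumour growth are known to lower this programme and to raise interferon-induced, chemokine, lipid-handling and antigen-presentation genes, and blood-derived macrophages that enter the brain carry many of the same raised genes.

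The libraries differed in how many barcodes the rule kept. In naive 1, 420 of 1000 barcodes passed the gene and mitochondrial limits and 96.7% of those were kept (exact binomial 95% interval 94.5 to 98.2). In metastasis 1, 990 passed and 23.9% were kept (21.3 to 26.7). The number of UMIs behind each side was nearly the same, 827210 in naive 1 and 829245 in metastasis 1, with a median of 1381 and 2121 UMIs and 736 and 1232 genes per kept barcode. The 3 deepest barcodes held 4.54% of the UMIs in naive 1 and 14.1% in metastasis 1. Barcodes left out by the selection genes had a median of 777 UMIs in naive 1 (14 barcodes) and 1631 in metastasis 1 (753 barcodes), and no barcode sequence was kept in both libraries at once.

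A kept barcode was not of the same kind on both sides. The median number of selection-gene UMIs was 12 in naive 1 and 4 in metastasis 1, and per 10000 UMIs of the barcode it was 85.5 and 20.8. The 10th to 90th percentiles of that share, 47.0 to 134 in naive 1 and 10.03 to 37.98 in metastasis 1, did not overlap. At the threshold, 14 naive and 76 metastasis barcodes had exactly 3 UMIs, and 10 and 171 passing barcodes were left out with 2. Transcripts of a list of 13 macrophage and monocyte markers outnumbered the selection genes in 7 of the 406 naive and in 83 of the 237 metastasis barcodes. At least 1 UMI of Rhox5, Esx1 or Wfdc2, which belong to the list of E0771-like carcinoma genes, was found in 1 naive and 137 metastasis barcodes, and in 16 of the latter these outnumbered the selection genes. The 237 are therefore called kept barcodes of metastasis 1 below and not microglia. A lower share of microglial RNA in these barcodes and less of a transcript per microglial cell cannot be told apart in the sums.

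**Figure D1:**
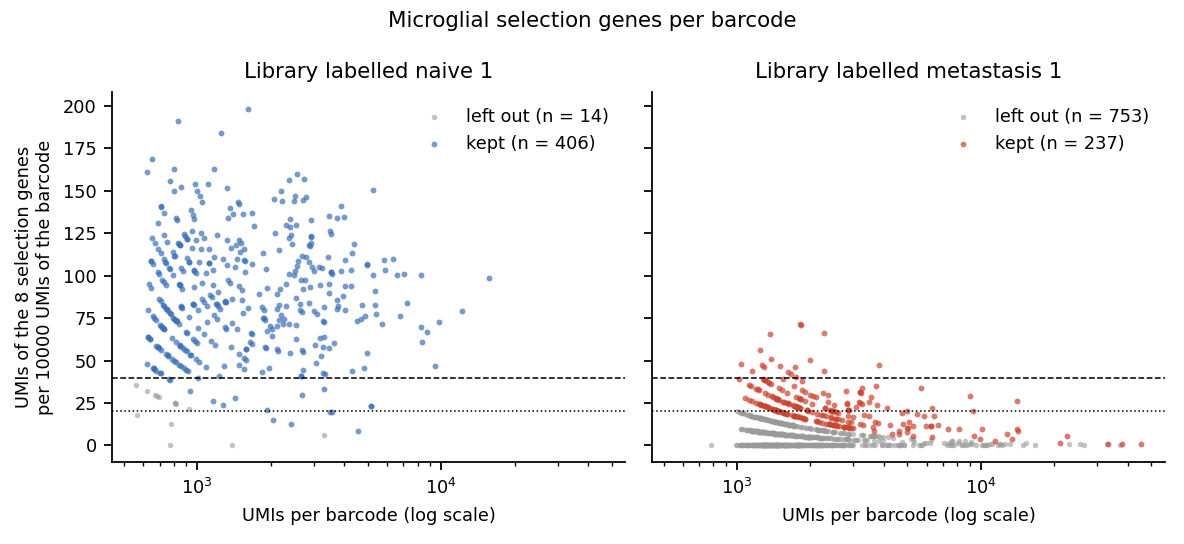
Each point is 1 barcode that passed the gene and mitochondrial limits, by its UMIs (horizontal, log scale) and its UMIs of the 8 selection genes per 10000 (vertical), with kept barcodes in colour and barcodes left out in grey; the dotted and dashed lines mark 20 and 40 per 10000. At or above 40 per 10000 lie 389 kept barcodes of naive 1 and 18 of metastasis 1.

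Marker lists of other cell types were summed over the kept barcodes as CPM (the UMIs of a gene scaled to a library sum of 1000000). Macrophage and monocyte markers stood at 349 CPM in naive 1 (exact Poisson 95% interval 310 to 392, 10 of 13 genes with a UMI, Chil3, Vcan and Arg1 at 0) and at 1875 CPM in metastasis 1 (1783 to 1971, 12 of 13, Chil3 at 0). The E0771-like list, 12 genes, had 44.7 CPM in naive 1, with Rhox5 and Esx1 at 0, against 854 CPM in metastasis 1. Neutrophil markers stood at 43.5 and 195 CPM with Ly6g at 0 on both sides, and NK cell markers at 235 and 521 CPM. Going the other way, B cell markers had 366 CPM in naive 1 against 35.0 in metastasis 1, ependymal and choroid plexus markers 707 and 162, and border-associated macrophage markers 1110 and 496. Most UMIs of the NK cell, B cell, and ependymal and choroid plexus lists were of Ccl5, Ighm and Ttr in that order. Most naive UMIs of Ttr lay in few barcodes, as given below. In the 753 passing barcodes of metastasis 1 that the rule left out, the macrophage list stood at 2267 CPM and the E0771-like list at 988 CPM, in each case above the kept barcodes. The part of these cells in the differences below was not tested. For many of the genes below the level in those 753 barcodes, called the other barcodes of metastasis 1, is given beside those of naive 1 and the kept barcodes.

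Across the genome, 5274 genes had at least 50 UMIs over both libraries and are called measured. A gene is called higher or lower where the log2 ratio of CPM, metastasis 1 over naive 1, was at least 1 in size and its 95% interval left out 0. The interval is exact for counting error alone. With 1 library a side the difference between mice is unknown, so no test was made and no p is given. By this rule 1344 genes, 25.5% of those measured, were higher in metastasis 1, and 623 genes, 11.8%, were lower. The median log2 ratio of all measured genes was 0.34, and with ratios taken relative to that median 902 genes were higher and 931 lower, so that higher genes went from 68.3% to 49.2% of the called. A gene of low count passed the minimum through the library in which it was high, so the counts of lists below describe these libraries and support nothing further.

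The other barcodes of metastasis 1 divided the calls. Of the 1344 higher genes, 951 (70.8%) had a level in the kept barcodes at or below that in the other barcodes of the same library, and 57 lay above it with an interval that left out 0. Only 3 of the 1344 were at least 2-fold above it, Spp1 among them. The 57 included Irgm1, Ifit3, Rtp4, Rsad2 and Aim2, all interferon-induced, with Tlr2, a receptor for bacterial lipoproteins, and the regulators Nfe2l2, Rel, Rgs1 and Dusp2; these examples were picked after their values were seen. Among the 623 lower genes, 140 (22.5%) were at or below the other barcodes, 202 lay above them with an interval that left out 0, and 78 were at least 2-fold above. The 202 include the 8 selection genes, on which kept and other barcodes were split. For comparison, of the 3307 genes called neither, 1521 (46.0%) were at or below the other barcodes. Of those 3307, 418 lay above with an interval that left out 0. Over all 5274 measured genes the median log2 ratio of kept over other barcodes was 0.003.

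**Figure D2:**
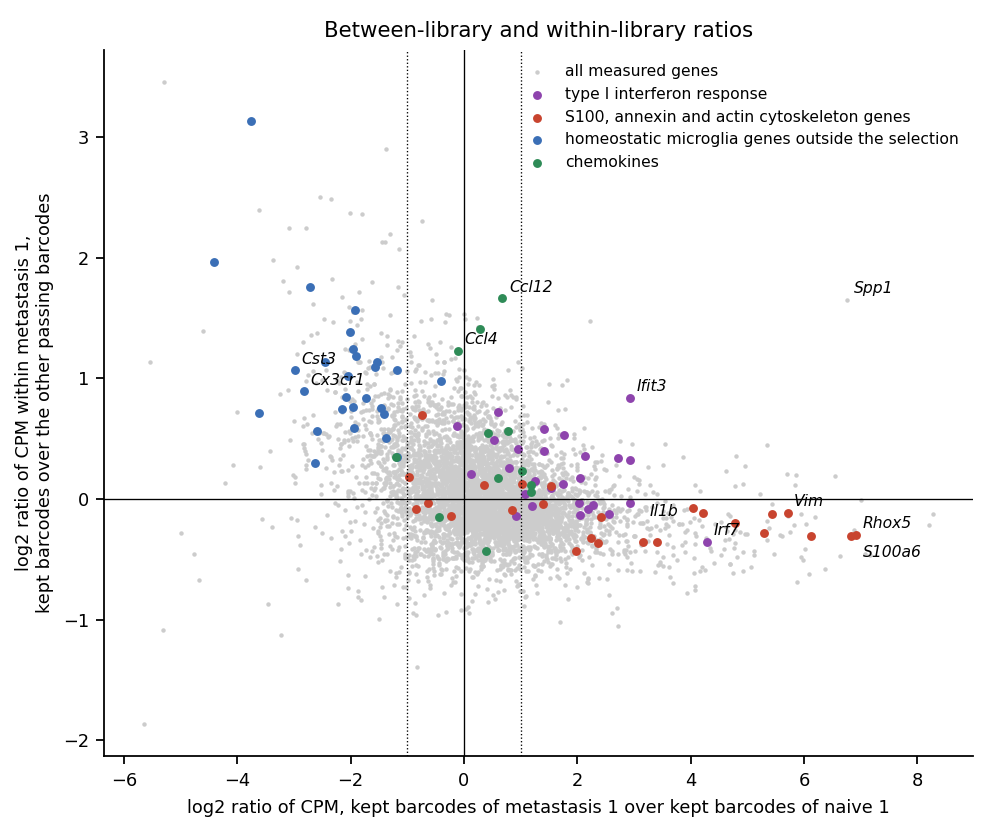
Each point is 1 of 5274 measured genes, by its log2 ratio of CPM between the kept barcodes of metastasis 1 and naive 1 (horizontal; dotted lines at -1 and 1) and its log2 ratio between kept and other passing barcodes within metastasis 1 (vertical); 4 gene lists are coloured. All 27 measured homeostatic genes lie left of 0 and above 0, while 20 of 25 measured genes of the S100, annexin and actin list lie at or below 0 on the vertical axis.

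The homeostatic microglial genes were lower throughout. The 8 selection genes, whose sum the rule used, all were lower in metastasis 1, with log2 ratios from -5.30 to -1.31, and they are given as a description of what the rule kept. P2ry12, the ADP receptor that guides process movement, had 2282 CPM in naive 1 against 391 CPM in metastasis 1, and Tmem119, a surface protein of resident microglia, at 1011 and 131 CPM. Siglech, a sialic acid receptor, stood at 2021 and 580 CPM, and Sall1, the transcription factor of microglial identity, at 144 and 57.9 CPM. Slc2a5, a fructose transporter, was represented by 5 UMIs in metastasis 1, or 6.03 CPM, against 237 CPM. None of the 8 was at or below the other barcodes, which follows from the rule.

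Outside the selection, 27 of 30 listed homeostatic genes were measured, 26 of them were lower and none was higher, with a median log2 ratio of -1.96. Cx3cr1, the fractalkine receptor (chr9:119901616-120069879, minus strand, GRCm38), was at 4033 CPM (3897 to 4172) in naive 1 against 570 CPM (520 to 624) in metastasis 1, a 7.07-fold lower level (log2 ratio -2.82, 95% interval -2.96 to -2.68). Its level in the other barcodes of metastasis 1 was 307 CPM. For Cx3cr1 the kept barcodes of metastasis 1 thus lay between naive 1 and the rest of their own library. After each barcode was thinned to 800 UMIs, which left 332 naive and 237 metastasis barcodes, Cx3cr1 was found in 92.5% of naive, 43.5% of kept metastasis and 27.9% of other metastasis barcodes, and Csf1r, the survival receptor for colony-stimulating factor, in 84.9%, 43.5% and 29.4%. The thinned shares keep the order of the CPM.

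Receptors of the list were lower together. Csf1r stood at 2627 and 592 CPM (log2 ratio -2.15). P2ry13, a second ADP receptor, stood at 406 and 61.5 CPM (-2.72), and Selplg, a selectin ligand, at 1759 and 144 CPM (-3.62). Less far from 0 were Tgfbr1, the type I TGF-beta receptor, at 741 and 280 CPM (-1.41), Mertk, a receptor for apoptotic cells, at 795 and 288 CPM (-1.46), and Entpd1, an ATP-degrading ectoenzyme, at 468 and 181 CPM (-1.37). Crybb1, a crystallin of microglia, had 340 UMIs in naive 1 and 16 in metastasis 1 (-4.41). Only Cd33, a sialic acid receptor, was called neither, at 110 and 83.2 CPM with an interval of -0.88 to 0.06.

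Among secreted products, Cst3, the protease inhibitor cystatin C (chr2:148871722-148875692, minus strand), was the most abundant of the named genes, with 56672 CPM in naive 1 against 7137 CPM in metastasis 1 (log2 ratio -2.99, interval -3.03 to -2.95), with 3407 CPM in the other barcodes. Sparc, a matrix-binding glycoprotein, stood at 3619 and 938 CPM (-1.95). Both lay above the other barcodes of metastasis 1, where Sparc stood at 625 CPM.

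**Figure D3:**
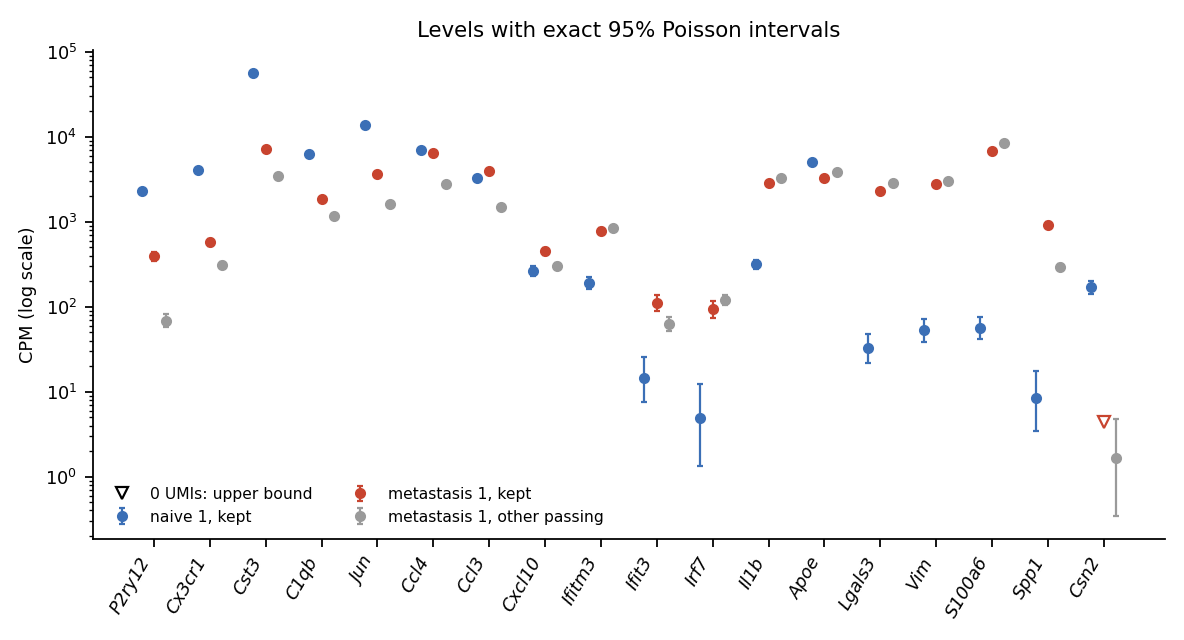
Levels of 18 genes in CPM (log scale) with exact 95% Poisson intervals, for kept barcodes of naive 1 (blue), kept barcodes of metastasis 1 (red) and other passing barcodes of metastasis 1 (grey); an open triangle is the upper bound where no UMI was found. Cx3cr1 stands at 4033, 570 and 307 CPM and Vim at 53.2, 2786 and 3019 CPM.

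The kept barcodes of metastasis 1 were not uniform. Split by selection-gene share, 23 barcodes held under 10 per 10000 with a median of 9899 UMIs, 78 held 10 to 20, 118 held 20 to 40 and 18 held 40 to 80 with a median of 1643 UMIs. From the first to the last of these bands Cx3cr1 stood at 197, 615, 908 and 1130 CPM, Csf1r at 268, 655, 878 and 968 CPM, and Ccl4 at 2482, 7377, 9833 and 12202 CPM. Vim, in the same order, stood at 4554, 1824, 1686 and 1420 CPM. In naive 1 the 152 barcodes with 40 to 80 per 10000 had 3987 CPM of Cx3cr1, 2419 of Csf1r, 8121 of Ccl4 and 71.4 of Vim. Within the band of 40 to 80, then, Cx3cr1 was lower and Vim higher in metastasis 1, with macrophage markers at 1420 CPM against 416 in naive 1 and Rhox5 at 258 CPM against 0. Barcodes of a band come from 1 library, so these values carry no test.

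**Figure D4:**
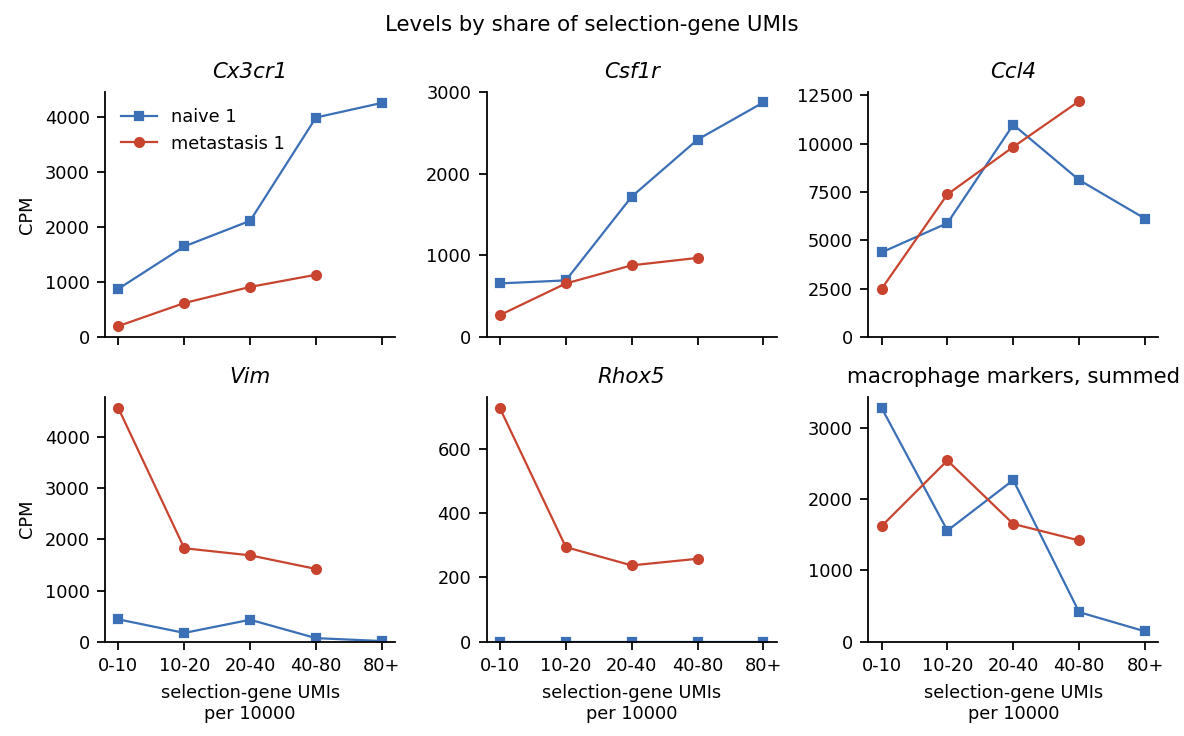
Levels in CPM (vertical, from 0) by band of selection-gene UMIs per 10000 (horizontal) in kept barcodes of naive 1 (blue squares) and metastasis 1 (red circles), for 5 genes and the summed macrophage and monocyte markers; no metastasis barcode lies at 80 or more. Cx3cr1 is below naive 1 in each of the 4 bands that both libraries fill, where the lowest 3 naive bands hold 1, 4 and 12 barcodes.

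Transcription factors of the myeloid lineage were mostly lower. Of 29 listed, 23 were measured, 14 were lower and 2 higher, with a median log2 ratio of -1.08. The 14 include Sall1, whose UMIs the selection rule used. Maf, a factor of tissue-resident macrophages, stood at 896 and 235 CPM (-1.93), Mef2c at 772 and 260 CPM (-1.57), and Irf8, needed for microglial development, at 473 and 224 CPM (-1.08). Spi1, which encodes the lineage factor PU.1, stood at 432 and 268 CPM and did not reach the limit. The 2 higher genes were Nfe2l2, the regulator of oxidative stress genes, at 390 and 792 CPM (1.02), and Bhlhe40 at 13.3 and 107 CPM (3.01), which stood at 132 CPM in the other barcodes.

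Immediate-early genes, which respond within minutes to stimulation and to tissue dissociation, were lower as well: 16 of 28 measured of 30 listed were lower and 2 higher (median -1.19), and 27 of the 28 lay above the other barcodes of metastasis 1. Jun was at 13601 CPM in naive 1 against 3665 in metastasis 1 (log2 ratio -1.89), with 1637 in the other barcodes. Fos stood at 6677 and 2157 CPM (-1.63), Egr1 at 7459 and 2711 CPM (-1.46), and Zfp36, an mRNA-decay protein, at 5921 and 1219 CPM (-2.28). Otud1, a deubiquitinase, had 162 and 21 UMIs (-2.95). The higher members were Dusp2, a phosphatase of the MAP kinases, at 126 and 463 CPM (1.88), and Rgs1, a brake on chemokine receptor signalling, at 481 and 1094 CPM (1.18).

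Type I interferon response genes stood higher in metastasis 1. Of 40 listed, 27 were measured, 20 were higher and none was lower, with a median log2 ratio of 1.74 (1.40 relative to the median of all measured genes, where 17 were higher). The promoters of 3 higher members that hold the interferon-stimulated response element, and that of Irf7, which has the highest ratio on the list, are shown so that the letters can be read beside the levels. They run from 250 bases before to 50 bases after the start of the RefSeq gene on GRCm38.p6, in the gene's own direction, with the motif in capitals. The motif was GAAA, any 2 bases and GAAA again, which on the other strand reads TTTC, any 2 bases and TTTC, and both were searched. The coordinates are chr19:34583279-34583578 (plus strand) for Ifit3, chr4:156200769-156201068 (minus) for Isg15, chr12:26456403-26456702 (minus) for Rsad2 and chr7:141266375-141266674 (minus) for Irf7.
Ifit3: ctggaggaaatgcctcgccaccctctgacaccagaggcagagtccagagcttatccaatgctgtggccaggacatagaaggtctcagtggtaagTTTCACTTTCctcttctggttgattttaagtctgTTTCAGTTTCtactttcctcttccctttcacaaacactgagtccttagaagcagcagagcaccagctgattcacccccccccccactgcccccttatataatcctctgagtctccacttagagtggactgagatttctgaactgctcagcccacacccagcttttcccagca
Isg15: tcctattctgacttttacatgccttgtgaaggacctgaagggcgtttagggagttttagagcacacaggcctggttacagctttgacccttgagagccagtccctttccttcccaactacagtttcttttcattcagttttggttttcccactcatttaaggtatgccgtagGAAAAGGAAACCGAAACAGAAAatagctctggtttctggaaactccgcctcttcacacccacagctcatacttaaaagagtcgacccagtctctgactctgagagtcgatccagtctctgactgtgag
Rsad2: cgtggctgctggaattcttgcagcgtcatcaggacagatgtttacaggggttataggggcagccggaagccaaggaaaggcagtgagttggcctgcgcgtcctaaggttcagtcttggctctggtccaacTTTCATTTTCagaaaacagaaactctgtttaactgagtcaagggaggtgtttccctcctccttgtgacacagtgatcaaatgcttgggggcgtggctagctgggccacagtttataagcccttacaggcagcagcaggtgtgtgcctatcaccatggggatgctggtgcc
Irf7: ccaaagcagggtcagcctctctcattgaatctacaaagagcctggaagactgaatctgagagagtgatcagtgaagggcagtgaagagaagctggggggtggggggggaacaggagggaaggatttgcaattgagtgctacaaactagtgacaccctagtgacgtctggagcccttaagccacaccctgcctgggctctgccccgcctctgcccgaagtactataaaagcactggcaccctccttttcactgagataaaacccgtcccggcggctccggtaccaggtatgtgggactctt
Ifit3 held 2 matches, Isg15 3 that overlap, Rsad2 1 and Irf7 0 in this window. Promoters were matched for 20 of the 27 measured members, and 11 of the 20 (55.0%) held the motif, among them 8 of the 14 higher members and 3 of the 6 called neither. Counted the same way, 174 of 4063 measured genes with a promoter (4.28%) held it. Counted by promoter, it was in 13 of 25 of the list (52.0%) and in 1131 of all 32851 RefSeq promoters of this length (3.44%). A match describes the letters and is neither a site nor a cause of the levels.

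Levels of these genes on the metastasis side lay close to those of the other barcodes for some members and above for others. Ifitm3, a membrane protein that blocks virus entry, stood at 189 CPM in naive 1, 775 in metastasis 1 (log2 ratio 2.04, interval 1.79 to 2.30) and 850 in the other barcodes. Slfn2, a regulator of immune cell quiescence, stood at 110, 839 and 856 CPM (2.93). Irf7, the factor that amplifies interferon induction, had 4 UMIs in naive 1 and 78 in metastasis 1, at 4.84, 94.1 and 120 CPM (4.28, interval 2.87 to 6.19). For these 3 genes the kept barcodes did not exceed the rest of the library. Ifit3, an RNA-binding antiviral protein, stood at 14.5, 111 and 62.1 CPM (2.94, interval 2.06 to 3.94), Rsad2, the antiviral enzyme viperin, at 43.5, 191 and 149 CPM (2.13), and Isg15, a ubiquitin-like modifier, at 60.4, 144 and 129 CPM (1.25). In all, 9 of the 27 were at or below the other barcodes, and 7 lay above them with an interval that left out 0. Few barcodes carried much of some of them, since 3 barcodes held 44.9% of the Rsad2 UMIs of metastasis 1. Of the 27 measured members 1 lay below 0, and it was called neither.

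Of 30 listed genes typical of interferon gamma, 16 were measured, 4 were higher and 1 lower (median 0.14), a share of higher genes close to the 25.5% over all measured genes. Relative to the median of all genes 3 were higher and 2 lower (median -0.20). Gbp2, a guanylate-binding protein, stood at 7.25 and 61.5 CPM (3.08), Cd274, the checkpoint ligand PD-L1, at 12.1 and 67.5 CPM (2.48) with 64.3 in the other barcodes, and Irgm1, an immunity-related GTPase, at 21.8 and 77.2 CPM (1.83) with 39.0 in the other barcodes. Icam1, an adhesion molecule, stood at 345 and 422 CPM. Of 9 measured MHC class I genes of 10 listed, 1 was higher and none lower (median 0.09, -0.25 relative to all genes): B2m stood at 5097 and 5981 CPM (0.23) and H2-D1 at 1645 and 2355 CPM (0.52). In MHC class II, 6 of 9 were measured, 2 were lower and none higher (median -0.55). Cd74, the invariant chain, stood at 939 and 463 CPM (-1.02), whereas the class II chain H2-Aa stood at 976 and 843 CPM (-0.21). The class II UMIs were concentrated in naive 1, where 3 barcodes held 41.5% of H2-Aa, and after thinning H2-Aa was found in 16.6% of naive and 36.3% of kept metastasis barcodes, opposite in order to its CPM, so no order is read from it.

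Most chemokines were called neither higher nor lower. Of 21 listed, 12 were measured, 3 were higher and 1 lower (median 0.51), a share of higher genes close to the 25.5% over all measured genes. Relative to the median of all genes none was higher and 1 lower, and with a mitochondrial limit of 5% the counts were also 0 and 1. In the full selection 10 of the 12 lay above the other barcodes of metastasis 1. Ccl4 (chr11:83662584-83664683, plus strand), which attracts monocytes and T cells, had 7003 CPM in naive 1 against 6501 in metastasis 1 (log2 ratio -0.11, interval -0.16 to -0.05), against 2775 in the other barcodes. Its neighbour Ccl3 (chr11:83647844-83649355, minus strand), a related attractant, stood at 3242, 3946 and 1489 CPM (0.28, interval 0.21 to 0.36). The difference from naive 1 was small for both, and the kept barcodes stood well above the rest of their library. After thinning, Ccl4 was found in 88.0% of naive, 90.7% of kept and 82.3% of other metastasis barcodes.

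Chemokines that attract monocytes and T cells differed among themselves. Ccl12, a monocyte attractant that acts through Ccr2, stood at 469 CPM in naive 1, 750 in metastasis 1 and 237 in the other barcodes (log2 ratio 0.68). Ccl7, of the same group, was lower at 442 and 192 CPM (-1.21). Cxcl10, the interferon-induced ligand of Cxcr3, stood at 261, 446 and 301 CPM (0.77, interval 0.53 to 1.02), 1.71-fold higher and under the limit for a call. Ccl5, which NK and T cells also make, stood at 155, 351 and 337 CPM (1.18). The NK markers at 235 and 521 CPM include Ccl5 and are mostly made up of it.

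Among 34 listed inflammatory cytokines and NF-kB targets, 30 were measured, 8 were higher and 3 lower (median 0.10). Relative to the median of all genes 4 were higher and 8 lower, so the list has no direction that holds under both scalings. Il1b, the inflammasome cytokine (chr2:129364570-129371139, minus strand), stood at 318 CPM in naive 1, 2847 in metastasis 1 and 3268 in the other barcodes (log2 ratio 3.16, interval 2.98 to 3.35). In thinned barcodes it was found in 7.53% of naive and 79.7% of kept metastasis barcodes, and in 78.9% of the others. Its antagonist Il1rn had 8 and 103 UMIs (3.68), and Tlr2 stood at 146 and 329 CPM (1.17). Tnf stood at 711 and 763 CPM (0.10) and the inflammasome sensor Nlrp3 at 359 and 608 CPM (0.76), neither reaching the limit. Lower in metastasis 1 was Cd83, a maturation marker, at 2243 and 920 CPM (-1.29), while Nfkbia, the NF-kB inhibitor, stood at 6310 and 3390 CPM (-0.90).

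Of 22 listed genes of disease-associated microglia, 18 were measured, 8 were higher, 1 was lower and 9 were neither (median 0.71). Relative to the median of all genes 4 were higher and 2 lower. The lower gene was Trem2, the lipid-sensing receptor upstream of that state, at 1660 and 416 CPM (-2.00), and its adaptor Tyrobp, called neither, stood at 2284 and 1328 CPM (-0.78). Apoe, the lipid carrier, stood at 5028 CPM in naive 1, 3249 in metastasis 1 and 3895 in the other barcodes (-0.63, called neither), with 17.2% and 17.3% of its UMIs in 3 barcodes on the 2 sides. Gpnmb, a membrane glycoprotein of lipid-laden macrophages, had no UMI in naive 1 and 179 in metastasis 1, at 216 CPM and 219 in the other barcodes. Against a floor of 3 counts per library it was 59.5-fold higher, a value set by the floor. Lgals3, a lectin of activated macrophages, stood at 32.6, 2279 and 2816 CPM (6.13). Spp1, osteopontin (chr5:104435118-104441050, plus strand), stood at 8.46, 920 and 292 CPM (6.76, interval 5.71 to 8.08), but 3 barcodes held 75.5% of its UMIs in metastasis 1. With every barcode given the same weight its log2 ratio was 5.41. After thinning Spp1 was found in 13.5% of kept and 16.5% of other barcodes.

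Lipid handling genes had 13 of 22 measured, 5 higher and none lower (median 0.95). Fabp5, a fatty acid carrier, had 4 UMIs in naive 1 and 263 in metastasis 1, at 4.84, 317 and, in the other barcodes, 365 CPM (6.04, interval 4.66 to 7.92). Lysosome and phagocytosis genes, 26 of 28 measured, had 2 higher and 4 lower (median -0.33). Ctsd, an aspartic protease, stood at 5337 and 1375 CPM (-1.96) and Ctss, a cysteine protease of antigen processing, at 6321 and 4439 CPM (-0.51). In the complement and Fc receptor list, 14 of 17 were measured, 7 lower and 1 higher (median -0.80). The 3 chains of the complement starter C1q were lower together, C1qa at 2239 and 490 CPM (-2.19), C1qb at 6250 and 1828 (-1.77) and C1qc at 4433 and 1454 (-1.61). The higher gene, Cfp, which encodes properdin, a product of neutrophils and monocytes, stood at 25.4, 172 and 169 CPM (2.76).

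Calcium-binding, cytoskeletal and matrix genes had ratios among the highest, and most of the first 2 kinds stood as high in the barcodes that the rule left out. Of 27 listed S100, annexin and actin genes 25 were measured, 18 were higher and none lower (median 2.37), and 20 of the 25 were at or below the other barcodes. S100a6, a calcium-binding protein (chr3:90612882-90624181, plus strand), stood at 56.8 CPM in naive 1, 6880 in metastasis 1 and 8468 in the other barcodes (log2 ratio 6.92, interval 6.51 to 7.37). Vim, the intermediate filament vimentin (chr2:13573927-13582826, plus strand), stood at 53.2, 2786 and 3019 CPM (5.71, interval 5.28 to 6.18), and after thinning was found in 2.71%, 75.9% and 85.2% of barcodes. Anxa2, an annexin of the plasma membrane, stood at 16.9, 663 and 806 CPM (5.29). Of 26 matrix genes 13 were measured, 9 higher and 1 lower, the latter being Sparc (median 2.44). Tgfbi, a matrix protein of infiltrating macrophages that is also in the macrophage list, stood at 76.2, 607 and 751 CPM (2.99).

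Transcripts typical of carcinoma and of dividing cells were part of the higher genes. Rhox5, an X-linked homeobox gene normally restricted to reproductive tissues (chrX:37804842-37808876, plus strand), had no UMI in the 406 naive barcodes and 362 in metastasis 1, 120-fold higher against the floor, at 437 CPM and 536 CPM in the other barcodes. After thinning it was found in 21.9% of kept and 26.7% of other barcodes of metastasis 1 and in none of naive 1. Cald1, the actin regulator caldesmon, had 0 and 431 UMIs, 143-fold higher against the floor, with 716 CPM in the other barcodes against 520 in the kept. Clec4e, a myeloid receptor for mycobacterial lipid, had 1 and 312 UMIs (8.28, interval 5.79 to 13.59). Of 25 proliferation genes 16 were measured, 13 higher and none lower (median 2.52). Top2a, a topoisomerase of dividing cells, stood at 8.46, 212 and 255 CPM (4.65), and Birc5, a mitotic regulator, had 1 and 129 UMIs (7.01, interval 4.50 to 12.32). Glycolysis and hypoxia genes, 16 of 25 measured, had 7 higher and 3 lower (median 0.72): Ldha, the lactate dehydrogenase chain, stood at 87.0, 464 and 565 CPM (2.42), and Hk2, a hexokinase, was lower (-1.14).

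Smaller lists were mixed. Iron handling genes, 9 of 14 measured, had 2 higher and 2 lower (median 0.31, -0.03 relative to all genes). Fth1, ferritin heavy chain, stood at 4516 CPM in naive 1, 10993 in metastasis 1 and 11706 in the other barcodes (1.28), whereas Ftl1, ferritin light chain, whose near-identical copies make its count uncertain, stood at 579, 82.0 and 59.9 CPM (-2.82). Heat shock genes, 15 of 18 measured, had 4 higher and 2 lower (median 0.33, -0.01 relative to all genes), with the chaperones Hsp90ab1 at 1886, 4792 and 6026 CPM (1.35) and the inducible Hspa1a at 199, 65.1 and 18.7 CPM (-1.61). Of 18 checkpoint and suppressive genes 8 were measured, 1 higher (Cd274) and 3 lower (Entpd1, Sirpa and Tgfb1). Sirpa, the receptor of the signal that blocks engulfment, stood at 737 and 317 CPM (-1.22). Cytosolic ribosomal protein genes, 74 of 85 measured, had 22 higher and 7 lower (median 0.58), near the share of higher genes overall. Relative to the median of all genes 10 were higher and 12 lower, and with equal barcode weights 9 and 9. In the full selection 60 of the 74 were at or below the other barcodes. The same rescaling gave 2 higher and 8 lower lysosome genes, 1 and 5 checkpoint genes, 1 and 3 iron handling genes, 5 and 3 glycolysis genes, and 17 and 3 genes of the S100, annexin and actin list.

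Some of the lowest ratios came from transcripts foreign to microglia. All 4 measured casein genes of 5 listed, which encode milk proteins of the mammary gland, were lower in metastasis 1. Csn2 (chr5:87692624-87699630, minus strand) had 140 UMIs over 96 barcodes of naive 1, 169 CPM, and none in kept barcodes of metastasis 1, 46.8-fold lower against the floor. Csn1s2a had 145 and 6 UMIs (-4.60) and Csn3 129 and 11 (-3.56). Ighm, the IgM heavy chain of B cells, had 277 and 23 UMIs (-3.59). It makes up most of the B cell markers at 366 and 35.0 CPM. Ttr, transthyretin of the choroid plexus, stood at 646 and 142 CPM (-2.18), with 74.2% of its naive UMIs in 3 barcodes, and its log2 ratio was 0.17 in the selection of at least 20 selection-gene UMIs per 10000. Csn2 and Ighm were instead spread, in 14.2% and 22.6% of thinned naive barcodes, and the source of these transcripts was not tested.

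**Figure D5:**
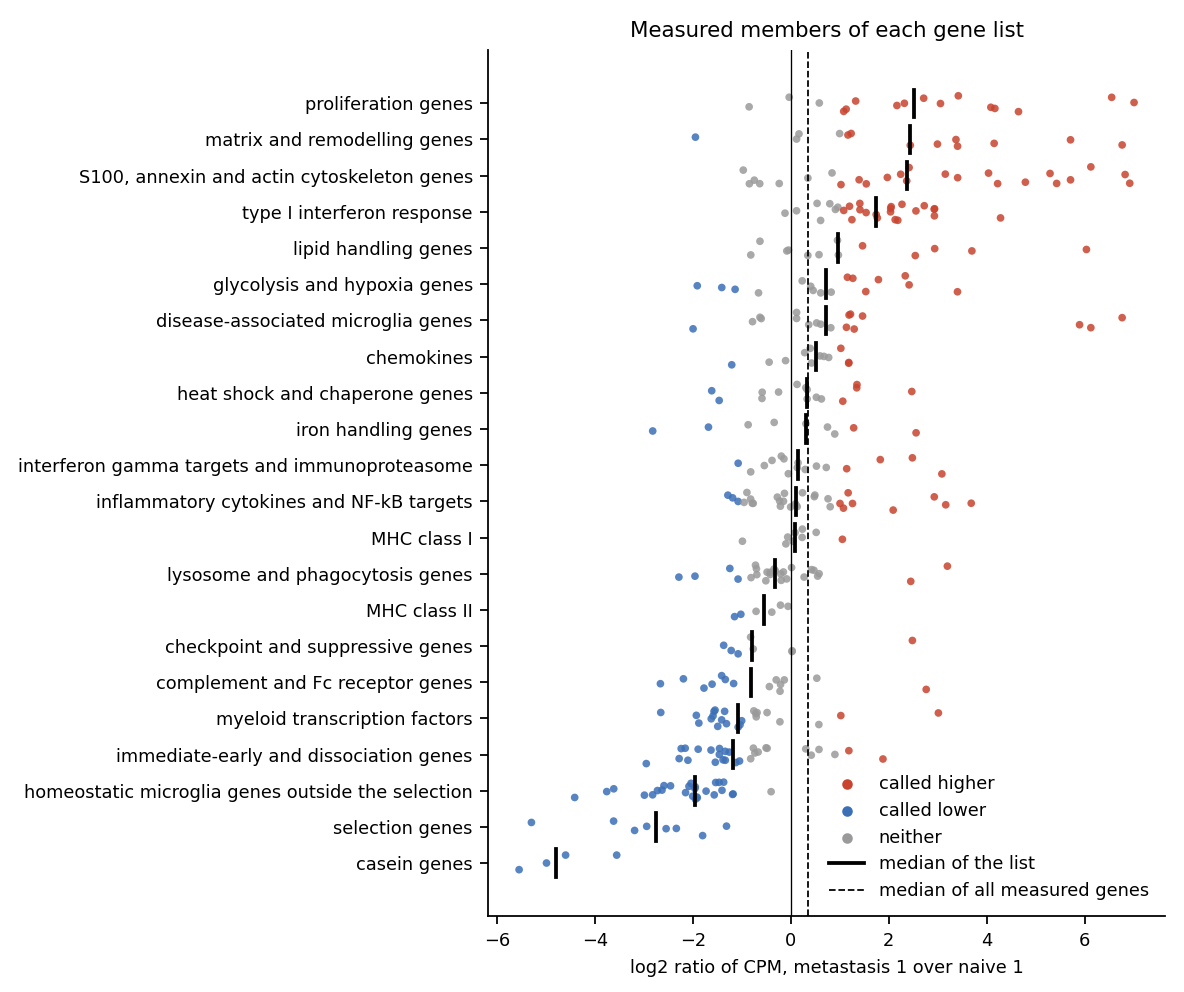
Log2 ratio of CPM, metastasis 1 over naive 1 (horizontal), of every measured member of 22 gene lists (vertical), with members called higher in red, lower in blue and neither in grey, the median of each list as a bar and that of all measured genes as a dashed line at 0.34. Homeostatic genes have a median of -1.96 with 26 of 27 lower, and type I interferon genes a median of 1.74 with 20 of 27 higher.

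Selections by share were run in place of the rule of 3 UMIs to see which ratios stood without barcodes of low microglial share. At least 20 selection-gene UMIs per 10000 took 410 naive barcodes (817678 UMIs), 401 of them kept by the rule of 3, and 137 metastasis barcodes (292932 UMIs), 136 of them kept by it. At least 40, a setting chosen after seeing the data, took 389 (785501 UMIs) and 18 (30979 UMIs). Of all genes measured there, 16.6% were higher and 11.3% lower at 20 per 10000, and 9.95% were higher and 4.88% lower at 40. Of the 1344 higher genes 696 were still measured at 20 per 10000, of which 514 had the same call and 695 the same sign. Of the 623 lower genes 564 were still measured, 373 with the same call and 563 with the same sign. At 40 per 10000 the higher genes had 358 still measured, 166 with the same call, and the lower genes 516 and 105. Fewer UMIs on the metastasis side make calls rarer by themselves.

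The homeostatic list kept its direction at both limits, at smaller size, with 27 measured members throughout. Interferon medians also stayed positive, over 16 and 7 measured members against 27 in the full selection. The limits did not make the share of selection genes equal. In naive 1, 237 barcodes held 80 or more per 10000, while the highest share in metastasis 1 was 71.7. The selection genes themselves had medians of -1.84 and -0.87. Lower homeostatic genes therefore cannot be told apart from the remaining gap in microglial share. Homeostatic genes had a median log2 ratio of -1.59 with 23 of 27 lower at 20 per 10000 and -1.30 with 14 of 27 lower at 40. Of all measured genes 11.3% and 4.88% were lower at these limits. Cx3cr1 stood at -2.14 and -1.88 and Cst3 at -2.54 and -2.27. Type I interferon genes had a median of 1.60 with 11 of 16 measured higher, and 1.10 with 3 of 7. Ifitm3 stood at 2.07 and at 1.31, the latter from 12 UMIs in metastasis 1. Immediate-early genes had medians of -0.71 and -0.81, and myeloid transcription factors -0.48 at 20 per 10000.

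Some inflammatory genes had larger ratios in these selections. Ccl4 had log2 ratios of 0.53 and 0.82 and Ccl3 of 0.85 and 1.00, where Ccl3 met the limit for a call at 40 per 10000 (3236 CPM in naive 1 and 6488 in metastasis 1). The share of selection genes was not equal here either. In naive 1 Ccl4 stood at 10983 CPM at 20 to 40 per 10000 (12 barcodes), 8121 at 40 to 80 and 6121 at 80 or more. In metastasis 1 it stood at 9833 and 12202 CPM in the bands of 20 to 40 and 40 to 80, with no barcode above. The part of this unequal share in the ratios was not tested. Ccl12 was higher at both limits, with 1.29 at 40 per 10000, and so was Nlrp3, with 1.24 and 1.34. Il1b stayed at 3.80 and 3.66, the latter from 94 UMIs in 18 barcodes. The NF-kB list had 7 of 26 higher and none lower at 20 per 10000 (median 0.51) and 5 of 25 higher and none lower at 40 (0.44), so most members were called neither. The chemokine list had 3 higher and 1 lower at both limits, of 11 and of 10 measured. Vim stood at 5.08 and 5.27, against 5.71 in the full selection, and S100a6 at 6.75 and 7.08, against 6.92. The S100, annexin and actin list, which holds both, had fewer members measured, 24 and 15 against 25. Its median went from 2.37 to 1.90 (16 of 24 higher) and 0.66 (7 of 15). Matrix genes, 13 measured in the full selection, went from a median of 2.44 to 1.83 (8 of 12 higher, 1 lower). At 40 per 10000 their median was 0.52 (3 of 6 higher, 1 lower). As members dropped out, no change of size is read from these medians. Apoe went from -0.48 to -1.29. Glycolysis genes, 12 measured at each limit against 16, had medians of 0.11 and -0.48. The disease-associated list had a median of -0.08 at 40 per 10000, with 12 measured against 18. Proliferation genes had 3 of 6 measured higher and then 0 of 4, against 16 measured in the full selection. The same limit applies to these lists.

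The pair labelled replicate 2 shares no library with this pair and was read by the same rule, with 153 kept barcodes in the library labelled naive 2 and 74 in that labelled metastasis 2. Its ratios ran the other way for most of the genes described. Of the 1344 genes higher in metastasis 1, 638 were measured in replicate 2, where 141 lay above 0 and 497 below (median log2 ratio -0.55). Of the 623 lower genes 490 were measured, 366 above 0 and 124 below (median 0.40). Of all 5274 genes 3315 were measured in replicate 2, 1595 above 0 and 1720 below (median -0.03). Homeostatic genes had a median of 0.48 there with 23 of 26 above 0, and type I interferon genes -2.78 with all 24 below 0. Cx3cr1 stood at 1547 CPM in the library labelled naive 2 and 4248 in that labelled metastasis 2, Ifit3 at 185 and 5.69 CPM, and Vim at 1190 and 28.4 CPM. Transcripts of other cells differed too: macrophage and monocyte markers stood at 1645 and 171 CPM and endothelial markers at 1529 and 73.9. Border-associated macrophage markers, at 627 and 779 CPM, and B cell markers, at 124 and 171, went the other way. The part of these cells in the replicate 2 ratios was not tested. Rhox5 had 4 UMIs in the kept barcodes of the library labelled naive 2, of 712454 UMIs, and 0 in those of the library labelled metastasis 2, of 175830 UMIs, a difference too small to read at this depth. The whole E0771-like list stood at 28.1 CPM in the kept barcodes of the former (17.1 to 43.4) and at 0 in the latter, which allows up to 21.0 CPM. Both lie under the 44.7 CPM of naive 1 and far under the 854 CPM of metastasis 1.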

How the data were processed

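For each library the authors deposited UMI counts of every gene in 1000 barcodes; all values are whole numbers and nothing had been scaled. The submitters' processing notes name STAR, Seurat and the mm10 build. How they were set and how barcodes were picked is not given in the sources used here. Per the labels, both replicate 1 libraries were sequenced on a HiSeq 2500 and both replicate 2 libraries on a NextSeq 500. Each group of the replicate 1 pair had 1 brain, so replicate spread is unknown. Counts of kept barcodes were summed per library and divided by the library's sum to give CPM. Ratios have exact conditional (Clopper-Pearson) 95% intervals and levels exact Poisson intervals. Both cover counting error only. A count of 0 was set to a floor of 3 counts per library for folds, and genes with fewer than 50 UMIs over both libraries were left out. Depth was 827210 UMIs in naive 1 and 829245 in metastasis 1. Doublets were not removed, except in an alternative without the top 5% of Scrublet scores (scanpy 1.11.5).

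The members, lists and limits were chosen with earlier results of these data known. Genes were named by a rule: the 8 selection genes, Cx3cr1 and Cxcl10, the 12 calls in each direction whose interval lay farthest from 0, the most abundant and the most changed members of each list, and the most abundant of marker lists that differed at least 4 times. Other list members were named after their values were seen. Gene coordinates are those of GENCODE on GRCm38, the assembly also called mm10, and promoters those of RefSeq on GRCm38.p6. Python 3.11.15 was used with numpy 2.4.6, pandas 2.3.3, scipy 1.17.1 and matplotlib 3.10.9, and the ratio and interval code was tested on simulated data. Alternatives covered scaling, the minimum per gene, the limits on barcodes and genes, the selection of barcodes, and thinning to 800 UMIs. Some genes of these lists are not reported here.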

Additional observations from a re-analysis of the deposited data

Results flagged for a closer look

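Carcinoma-like transcripts also stood out in barcodes that the main comparison of the groups leaves out. The 12 genes of the E0771-like list came to 988 CPM in the 753 passing barcodes of metastasis 1 outside the selection. In the kept barcodes of naive 1 the same list came to 44.7 CPM, and in the 14 passing barcodes of naive 1 outside the selection to 373 CPM from 5 UMIs. No explanation of this signal was tested.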

How the results depend on the processing

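With 1 library a side no replicate could be left out. No paired analysis was possible because each group has 1 library in this pair. Against 1344 genes higher and 623 lower, a minimum of 20 UMIs per gene gave 2043 and 963, and no minimum gave 2544 and 1185. At least 1 UMI of the 8 selection genes gave 2031 higher, at least 6 gave 692, at least 20 per 10000 gave 615, and barcodes without a UMI of Rhox5, Esx1 or Wfdc2 gave 609. Thinning to 800 UMIs gave 340 and 228. Alternatives chosen after seeing the data gave 269 and 132 (at least 40 per 10000) and 595 and 397 (markers of other cells below the selection genes). Smaller selections also hold fewer UMIs, so fewer genes were measured. Relative to the median gene there were 902 and 931 calls. The other limits on mitochondrial share and detected genes, totals without mitochondrial and ribosomal genes, equal weights, and leaving out the 3 deepest barcodes or the top 5% of Scrublet scores kept both counts within 1.5 times. The ratio of Ttr turned to 0.17 at 20 per 10000, where the cause was not tested. That of Upk1b, a homeostatic gene, turned to 0.55 at 40 per 10000 by construction, since it had 0 UMIs in the 18 metastasis barcodes, where the floor of 3 counts lies above the naive level of 66.2 CPM. Depth limits genes of few UMIs, and nothing here measures the spread between mice.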
